A study of Mus musculus with 7 samples.

Results

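The 60 genes described here lie on mouse chromosome 2 on both sides of B2m, the gene that was disrupted, and were chosen by position among 19505 named genes on the array. Its product, beta-2-microglobulin, pairs with the heavy chain of MHC class I molecules. Expression was measured on 1 array per sample in microglia, the resident macrophages of the brain, sorted as live cells positive for CD45 and CD11b. There were 4 samples of the genotype 5xFAD;B2m-/- (knockout) and 3 of 5xFAD;B2m+/+ (wildtype). All 7 carried the 5xFAD transgenes, which drive human amyloid precursor protein and presenilin with familial Alzheimer mutations from a neuronal promoter, and all were labelled C57BL/6. The labels gave no age, sex, litter or batch, and did not name the B2m allele or the strain of the stem cells in which it was made. Nothing in them told whether each array was a different mouse. The p-values therefore describe only how these 7 samples scatter, and part of that scatter may be technical.

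A targeted allele is usually made in embryonic stem cells and then bred into a chosen strain. Genes that sit close to the target on the same chromosome are inherited with it more often than unlinked genes, so a knockout and its control can differ at neighbouring genes as well as at the target. A disrupted locus can also alter transcription next to it. For these reasons the order of genes around a knocked-out locus is a common check in expression studies. The neighbours of B2m share no pathway. They serve vesicle traffic, transcription, splicing, cell division, mitochondrial metabolism, protein turnover and ion transport, and most are used by many cell types.

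In gene order, 39 of the 60 genes lay on the centromeric side of B2m, from Ivd to Spg11, and 21 on the telomeric side, from Slc30a4 to Ckap2l. Each had 1 probe set. The list was not a complete run of neighbours, and it was chosen with earlier results of these data known. Between Ivd and Ckap2l the array named 143 genes. The list left out the 4 genes of this stretch that passed correction, B2m among them, and their values are given for comparison.

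The array values are log2 expression after RMA, which removes background, puts the arrays on 1 scale and combines the probes of a set. Differences are knockout minus wildtype. Of the 60 members, 46 were bright enough to be tested, meaning that on 3 or more of the 7 arrays they exceeded the median of the named genes. None of these 46 exceeded that median in 1 genotype alone. The other 14 were Rpusd2, Rmdn3, Zfyve19, Ndufaf1, Itpka, Mapkbp1, Cdan1, Ubr1, Map1a, Bloc1s6, Myef2, Dut, Stard7 and Slc20a1. The members were mostly dim. Only 12 exceeded the 95th percentile of the array's negative control rows (9.35 to 9.55) on all 7 arrays, 39 exceeded it on no array, and 9 were mixed. These control rows are a rough guide to background, so folds are given only for members above that percentile throughout. The highest genotype mean, 11.84, belonged to Serf2 in knockout arrays and the lowest, 5.97, to Itpka in wildtype arrays, an inositol-trisphosphate kinase best known from neurons.

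Microglial identity was checked with 14 marker genes on the array, all bright enough to be tested. Their mean log2 level was 12.35 to 12.45 in knockout and 12.33 to 12.41 in wildtype arrays. Endothelial and mural markers (10 of 10 on the array, all tested) averaged 9.22 to 9.41 in knockout arrays, against 10.02, 9.99 and 9.16 in wildtype replicates 1, 2 and 3. Of these, 5 had an unadjusted p under 0.05, each with lower knockout values, and 0 passed correction. At the same threshold, 2 monocyte markers, 2 markers of dividing cells and 1 microglial marker had higher knockout values, and 11.9% of all tested genes had such a p. Monocyte markers (5 of 5 on the array) averaged 8.54 to 9.86 in knockout and 8.26 to 8.85 in wildtype arrays, and neutrophil markers (5 of 6) 9.38 to 11.57 in knockout and 9.43 to 10.16 in wildtype arrays, with the highest value of both lists in knockout replicate 4. In bulk samples, fewer cells of a type and less RNA per cell cannot be told apart. The markers of T cells (8 on the array), B cells (4), astrocytes (6) and oligodendrocytes (5) never reached the negative control percentile on any array, and neither did 9 of 10 neuronal markers and 10 of 11 markers of dividing cells.

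Of the 3 pairs of members whose genes start head to head on opposite strands with overlapping promoter windows, 1 pair had lower values for both genes in knockout microglia, and its windows are shown for that reason. The pair is Dnajc17, a J-domain protein linked to pre-mRNA splicing, and Zfyve19, a FYVE-domain protein of the abscission checkpoint. The windows, from RefSeq on GRCm38.p6, run from 250 bases before to 50 after an annotated start. Some genes have several starts, and for each pair the windows that shared the most bases were taken. That of Dnajc17 is chr2:119208746-119209045 on the minus strand and that of Zfyve19 chr2:119208470-119208769 on the plus strand. Capitals mark the 24 bases that both windows hold, and both sequences are written 5′ to 3′. These bases end each window and lie after both starts, so the windows share no bases before either start.
Dnajc17: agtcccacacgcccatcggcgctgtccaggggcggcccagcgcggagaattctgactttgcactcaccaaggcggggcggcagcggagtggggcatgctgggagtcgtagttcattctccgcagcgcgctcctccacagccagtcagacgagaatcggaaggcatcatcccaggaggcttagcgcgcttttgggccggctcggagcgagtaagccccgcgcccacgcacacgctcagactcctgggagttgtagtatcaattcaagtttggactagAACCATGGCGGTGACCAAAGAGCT
Zfyve19: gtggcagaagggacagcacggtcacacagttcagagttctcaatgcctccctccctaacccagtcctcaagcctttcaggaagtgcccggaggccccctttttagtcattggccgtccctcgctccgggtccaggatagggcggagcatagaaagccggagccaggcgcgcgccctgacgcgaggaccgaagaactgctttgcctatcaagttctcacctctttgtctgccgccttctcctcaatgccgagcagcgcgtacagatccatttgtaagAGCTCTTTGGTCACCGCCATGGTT

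The other head-to-head pairs are shown for contrast by 1 window each. The windows taken for them share more sequence, and how much depends on which annotated starts were paired. The Haus2 window, chr2:120609345-120609644 on the plus strand, shares 264 bases with that of Lrrc57, and the Galk2 window, chr2:125858859-125859158 on the plus strand, shares 126 bases with that of Cops2. Capitals mark the shared bases.
Haus2: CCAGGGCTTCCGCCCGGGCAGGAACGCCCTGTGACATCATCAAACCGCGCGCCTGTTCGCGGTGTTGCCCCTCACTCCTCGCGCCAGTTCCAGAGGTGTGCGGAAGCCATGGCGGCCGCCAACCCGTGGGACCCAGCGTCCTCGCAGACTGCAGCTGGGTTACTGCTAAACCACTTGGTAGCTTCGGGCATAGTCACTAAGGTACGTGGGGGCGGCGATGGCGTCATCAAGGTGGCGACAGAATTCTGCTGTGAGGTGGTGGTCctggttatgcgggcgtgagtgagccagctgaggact
Galk2: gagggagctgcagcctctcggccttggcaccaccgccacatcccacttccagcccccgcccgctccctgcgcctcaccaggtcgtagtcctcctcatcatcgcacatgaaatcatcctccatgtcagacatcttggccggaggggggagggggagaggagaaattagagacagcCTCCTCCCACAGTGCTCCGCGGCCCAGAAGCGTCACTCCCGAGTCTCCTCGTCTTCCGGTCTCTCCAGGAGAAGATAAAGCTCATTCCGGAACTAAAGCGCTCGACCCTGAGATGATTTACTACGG
RefSeq windows were matched for 56 of the 60 members, some with several. The motif CCGGAAG, a core of sites bound by the GA-binding protein whose beta subunit is encoded by the member Gabpb1, was searched on both strands. It occurred in 16 of 65 member windows (24.6%), against 8.86% of all 32851 windows. The latter were not limited to genes bright enough to be tested, and whether the factor acts on the members was not tested. Windows that overlap can hold 1 site between them, and such a site counts in each window. The match in the Galk2 window and that in the Cops2 window are the same site, inside the bases they share. The windows of Dnajc17, Zfyve19, Haus2 and Lrrc57 held none.

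The targeted gene itself separated the genotypes. B2m was 10.40, 10.56, 10.47 and 10.24 in the knockout arrays, against 13.42, 13.41 and 13.39 in the wildtype arrays. The difference was -2.99 (SE 0.104, limma adjusted p = 1.54e-07). Among the negative control rows of the same array, the knockout values of B2m ranked at 97.7% to 98.4%, so a signal above most of them remained.

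None of the 46 tested neighbours on the list passed correction in limma (0 called, Benjamini-Hochberg adjusted p under 0.05 over all 10004 tested genes, of which 0.05% were called, 0.02% higher and 0.03% lower). Over all tested genes 5 were called, and 26 without wildtype replicate 3, with 0 members called in either case. Their adjusted p-values lay between 0.308 and 0.984. Without correction, 14 of the 46 (30.4%) had p under 0.05, 8 with higher and 6 with lower values in knockout microglia. After repeated quantile normalization the split was 5 higher and 9 lower. The same threshold took in 11.9% of all tested genes, 8.39% higher and 3.54% lower. Because the list was chosen with earlier results of these data known, the members' share is only a description beside the 11.9%. The list also left out the 4 genes of the stretch that passed correction, so the count of 0 does not describe the stretch. The genotypes did not overlap in 12 tested members (26.1%), 5 higher and 7 lower, where 10.9% of all tested genes did not overlap, 7.1% higher and 3.8% lower. Of the 14 members at an unadjusted p under 0.05, 11 lay below the negative control percentile on every array and 2 above it on every array.

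The differences of the tested members, which leave out the 4 called genes of the stretch, were small and went both ways. Their median was -0.0098 over the 46, with 22 above 0 and 24 below, and the median over all tested genes was -0.0055. The median size of the difference, sign aside, was 0.197 in the members and 0.117 over all tested genes. Fitted without the filter, 17 of all 60 members had an unadjusted p under 0.05, where 9.1% of named genes did. Along the chromosome, the sign was shared in 23 of the 45 pairs of tested members that follow each other on the list. The plot of differences in gene order shows both signs on both sides of B2m.

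**Figure D1:**
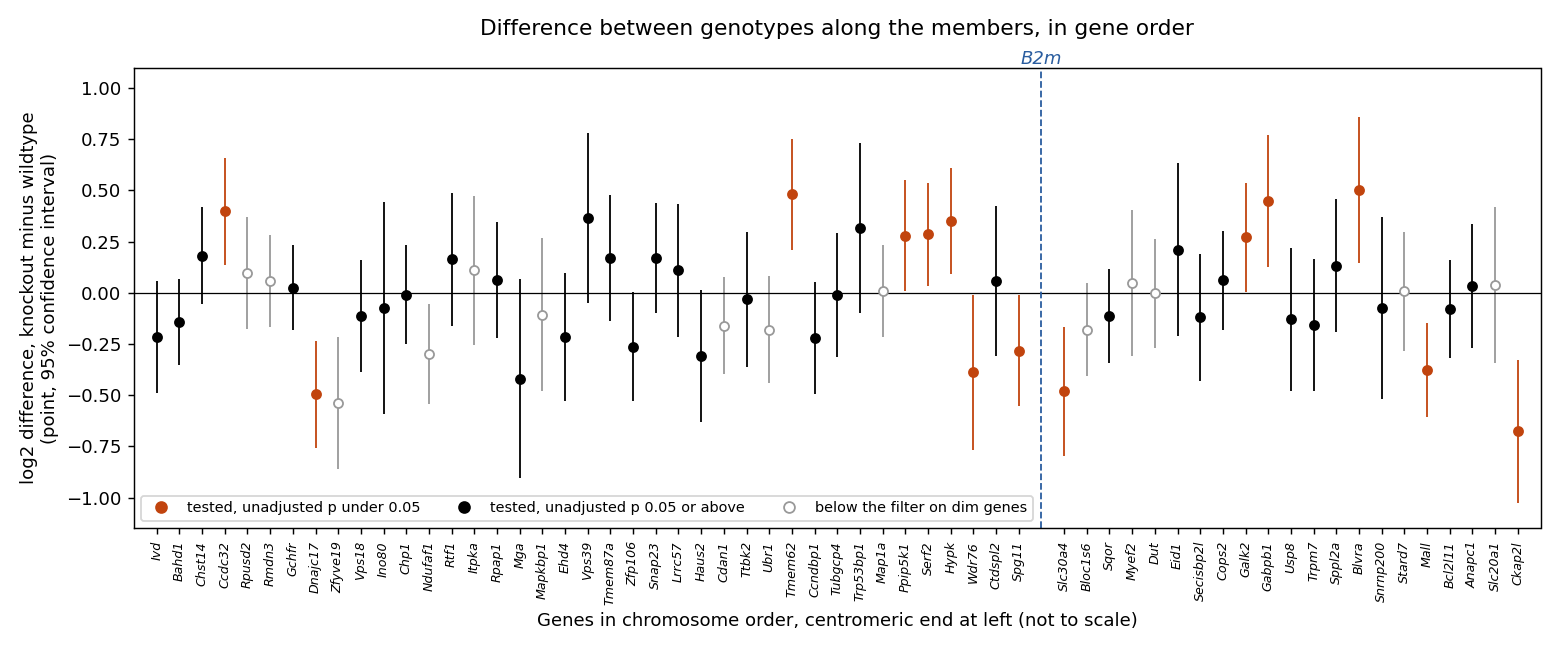
Log2 difference (knockout minus wildtype, vertical axis) of the 60 members in chromosome order (horizontal axis, not to scale), with 95% confidence intervals from limma. Filled red points are the 14 tested members at an unadjusted p under 0.05, filled black points the other tested members, open grey points the 14 members below the filter, and the dashed line marks B2m. Points lie above and below 0 on both sides of B2m, from -0.68 in Ckap2l to 0.50 in Blvra.

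The member list and the rest of the stretch were set side by side, with no test of the difference between them. Of the 80 tested genes between Ivd and Ckap2l, 21 (26.2%) had an unadjusted p under 0.05. The 34 that were not members held 7, and 4 of these 7 were the genes that passed correction, B2m, Spint1, Gatm and Kcnip3. Thus 4 of the 80 tested genes of the stretch were called, against 1 of 9924 outside it and 0 of 690 elsewhere on chromosome 2. The list set the ends of the stretch, so these counts are a description. Without those 4, 3 of 30 had such a p, against 11.9% of all tested genes. They were Capn3, Lcmt2 and Frmd5, at -0.25, -0.27 and -0.37, named after their values were seen. Among the 690 tested genes elsewhere on chromosome 2 the share was 13.3%, with 68 higher and 24 lower. Because the list was not a complete run of neighbours, the members' share of 30.4% does not describe the stretch as a whole.

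**Figure D2:**
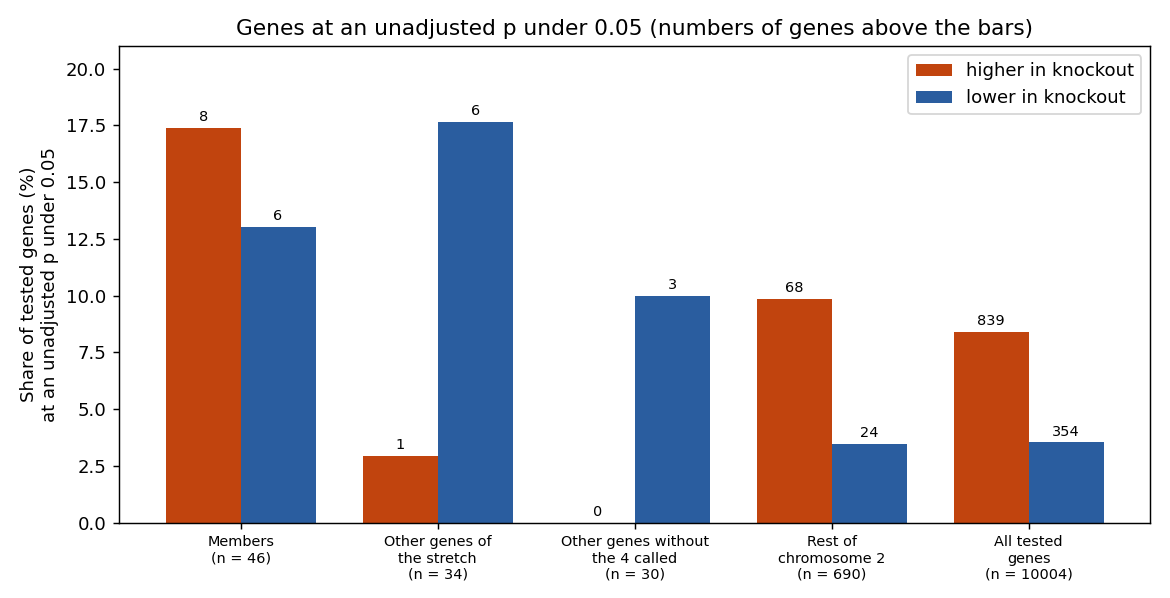
Percent of tested genes at an unadjusted p under 0.05 (vertical axis), higher (red, left) or lower (blue, right) in knockout microglia, for 5 sets of genes with the number tested below each. Numbers above the bars count genes. The members had 8 higher and 6 lower of 46, the other genes of the stretch without the 4 called 0 higher and 3 lower of 30.

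The 3 called neighbours other than B2m lay on both sides of it. Gatm, the first enzyme of creatine synthesis and the next tested gene on the telomeric side of B2m, was 11.89 ± 0.082 (SD, n = 4) in knockout and 9.94 ± 0.11 (SD, n = 3) in wildtype arrays, and rose by 1.95 (SE 0.101, limma adjusted p = 6.03e-06). Spint1, a serine protease inhibitor 36 tested genes away on the centromeric side, was 7.26 ± 0.22 (SD, n = 4) in knockout and 12.02 ± 0.037 (SD, n = 3) in wildtype arrays, and fell by 4.75 (SE 0.127, limma adjusted p = 2.17e-08). Ranked among the negative control rows of the same array, its knockout values stood at 62.8% to 74.7%, not above background, so the size of that difference is limited by background. Kcnip3, which encodes calsenilin and lies 27 tested genes away on the telomeric side, was 7.55 ± 0.21 (SD, n = 4) in knockout and 9.80 ± 0.18 (SD, n = 3) in wildtype arrays, and fell by 2.25 (SE 0.137, limma adjusted p = 2.44e-05). The knockout values of Kcnip3 ranked at 69.8% to 79.5%, with the same limit.

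Of the genes nearest to B2m on the centromeric side, Spg11 came first. It encodes spatacsin, which acts in lysosome reformation and is mutated in a hereditary spastic paraplegia. Spg11 was 8.43, 8.43, 8.59 and 8.66 in knockout arrays, against 9.06, 8.72 and 8.66 in wildtype arrays. The highest knockout and the lowest wildtype array lay within rounding of each other, and the difference of -0.28 (SE 0.122, unadjusted p = 0.0424, limma adjusted p = 0.405) did not pass. Without wildtype replicate 1 it was -0.16. Ctdspl2, a phosphatase of the same family as the small C-terminal domain phosphatases, came next at 0.06 (SE 0.165). Wdr76, a WD-repeat protein linked to the DNA damage response, was 8.25, 7.79, 8.32 and 8.60 in knockout and 8.75, 8.67 and 8.47 in wildtype arrays. Knockout replicate 4 overlapped the wildtype range, and the difference of -0.39 (SE 0.170) did not pass. It was -0.24 without knockout replicate 2, the lowest array.

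Hypk and Serf2, 8 and 10 tested genes from B2m, were the brightest members at an unadjusted p under 0.05, and both had higher values in knockout microglia. HYPK is a huntingtin-interacting chaperone that also binds the main N-terminal acetyltransferase, and SERF proteins are small charged proteins known, first from worms, to promote amyloid aggregation. Hypk was 11.36, 11.30, 11.43 and 11.15 in knockout arrays, against 10.82, 10.90 and 11.15 in wildtype arrays, a 1.28-fold difference (0.35, SE 0.116, limma adjusted p = 0.343). Serf2 was 11.90, 11.89, 11.86 and 11.70 in knockout arrays, against 11.38, 11.53 and 11.74 in wildtype arrays, 1.22-fold (0.29, SE 0.114, limma adjusted p = 0.383). In both genes wildtype replicate 3 reached knockout replicate 4, the lowest knockout array. The annotation places Serf2 over 2244 bases of Serinc4, and which gene its probes read was not analysed here. Without wildtype replicate 1 the unadjusted p was 0.0554 for Hypk and 0.127 for Serf2.

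On the telomeric side, Slc30a4 was the nearest tested member. It encodes the zinc transporter ZnT4, which moves zinc out of the cytosol and into vesicles. Slc30a4 was 7.99, 7.60, 7.95 and 8.15 in knockout arrays, against 8.48, 8.53 and 8.20 in wildtype arrays, without overlap (-0.48, SE 0.142, unadjusted p = 0.00671, limma adjusted p = 0.320). None of the next 4 tested members had an unadjusted p under 0.05 in limma. Sqor, which oxidizes sulfide in mitochondria, differed by -0.11 (SE 0.103), Eid1, an inhibitor of the coactivator p300, by 0.21 (SE 0.189), Secisbp2l, related to the selenoprotein synthesis factor SECISBP2, by -0.12 (SE 0.140) and Cops2, a COP9 signalosome subunit, by 0.06 (SE 0.109).

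Chromatin and transcription members were tested for 8 of 9, and 1 had an unadjusted p under 0.05, with higher knockout values. That gene was Gabpb1, a subunit of a factor that drives genes of mitochondria and ribosomes. It was 9.11, 9.17, 9.06 and 9.36 in knockout arrays, against 9.04, 8.43 and 8.72 in wildtype arrays. All knockout arrays lay higher, though knockout replicate 3 and wildtype replicate 1 nearly met (0.45, SE 0.146, limma adjusted p = 0.339). Without wildtype replicate 2 the difference was 0.30. Bahd1, which takes part in heterochromatin silencing, did not overlap either, with 9.46 to 9.59 in knockout and 9.62 to 9.77 in wildtype arrays (-0.14, SE 0.0942, unadjusted p = 0.162). Mga, a repressor that pairs with MAX, had the widest difference that stayed above the threshold in this group, -0.42 (SE 0.219). Its values were 8.72, 8.96, 9.08 and 9.69 in knockout arrays, against 9.78, 9.64 and 9.18 in wildtype arrays, so knockout replicate 4 lay inside the wildtype range. Rtf1, which associates with the Paf1 elongation complex, differed by 0.16 (SE 0.146).

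Among RNA processing and translation members, 4 of 5 were tested, all with differences below 0. Dnajc17, whose window is shown above, was 8.46, 8.65, 8.42 and 8.42 in knockout arrays, against 8.76, 9.12 and 9.08 in wildtype arrays. No array of 1 genotype reached the other, and the difference was -0.50 (95% confidence interval -0.76 to -0.23, unadjusted p = 0.00174, limma adjusted p = 0.315). Its partner Zfyve19 was 7.46, 7.46, 7.41 and 7.75 in knockout arrays, against 7.93, 7.85 and 8.40 in wildtype arrays. It was below the filter, and in the fit without a filter, over all 19505 named genes, it differed by -0.54 (SE 0.145, unadjusted p = 0.00366, limma adjusted p = 0.430). The reference annotation overlaps the 2 genes by 232 bases at their starts, and which bases the probes read was not analysed here. The other pairs did not share a direction that passed even without correction. Lrrc57 differed by 0.11 (SE 0.147) and Haus2 by -0.31 (SE 0.145), and Cops2 by 0.06 and Galk2 by 0.27 (SE 0.120). Zfp106, an RNA-binding zinc finger protein, differed by -0.26 (SE 0.120, unadjusted p = 0.0519), and Snrnp200, the helicase of the U5 spliceosomal particle, by -0.07 (SE 0.200).

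**Figure D3:**
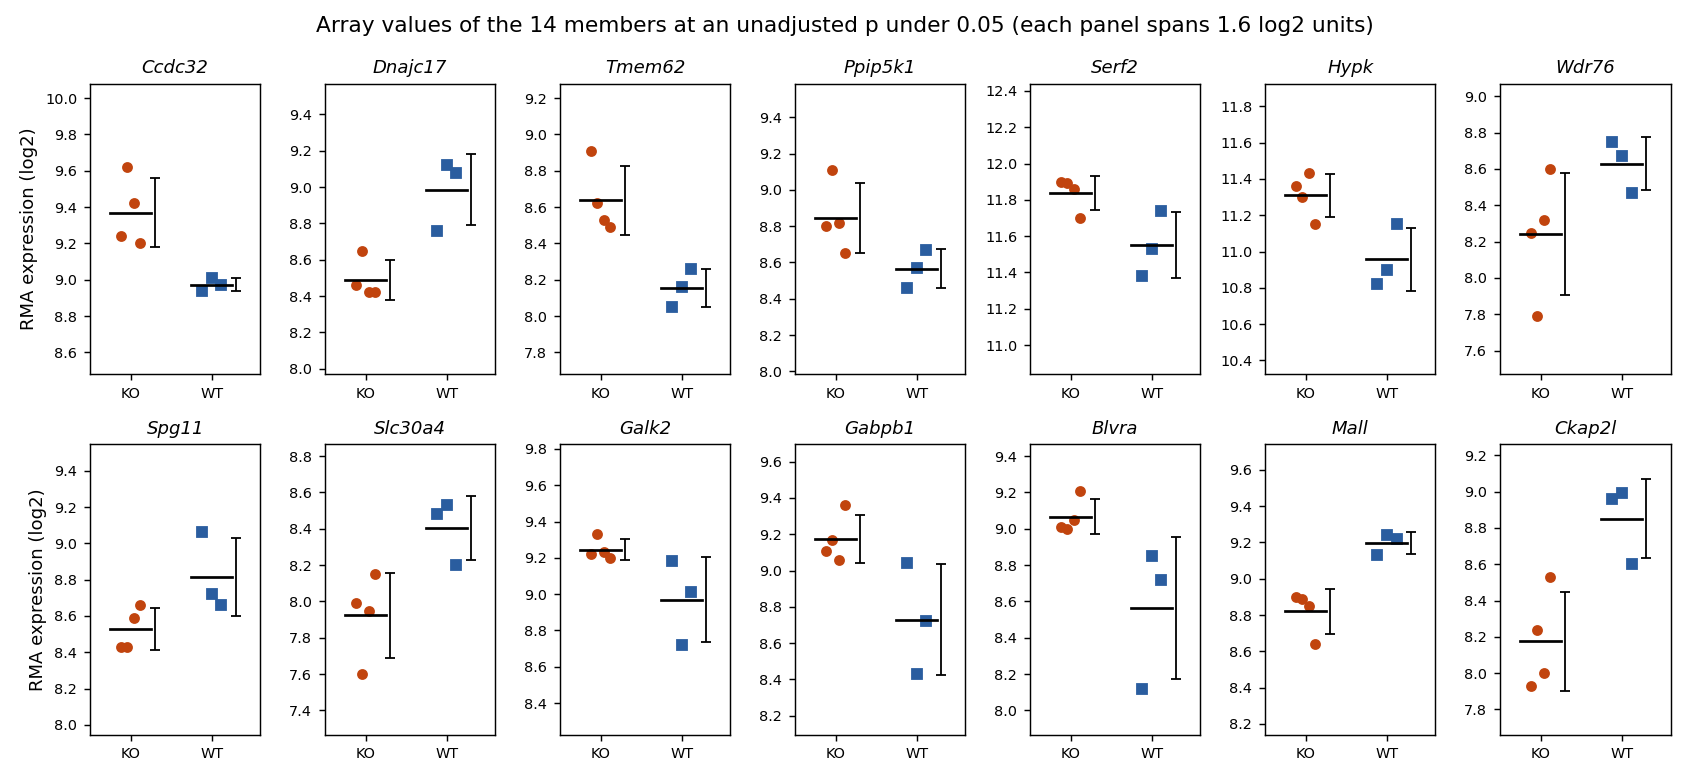
RMA expression (log2, vertical axes) in each array for the 14 tested members at an unadjusted p under 0.05, in chromosome order. Red circles are the 4 knockout arrays (KO), blue squares the 3 wildtype arrays (WT), horizontal bars the means and error bars the SD. Each panel spans the same range of 1.6 log2 units. Ccdc32, Dnajc17, Tmem62, Blvra and Mall show no overlap between genotypes, and Serf2, Hypk, Wdr76 and Ppip5k1 show overlap.

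Members of cell division, microtubules and DNA repair were tested for 8 of 11, and 2, Wdr76 and Ckap2l, had an unadjusted p under 0.05 with lower knockout values. Ckap2l encodes a spindle protein, was the farthest tested member on the telomeric side (37 tested genes from B2m), and had the largest difference among all members. It was 7.93, 8.24, 8.0 and 8.53 in knockout arrays, against 8.96, 8.99 and 8.60 in wildtype arrays. The genotypes did not overlap, with knockout replicate 4 and wildtype replicate 3 closest (-0.68, SE 0.158, unadjusted p = 0.00147, limma adjusted p = 0.308). Ckap2l was among the 11 members at an unadjusted p under 0.05 that lay below the negative control percentile on every array. So did 10 of 11 markers of dividing cells. Those markers averaged 7.71 to 8.02 in knockout and 7.64 to 7.68 in wildtype arrays. Haus2, an augmin subunit, Ccndbp1, which binds cyclin D, and Trp53bp1, which acts at DNA breaks, differed by -0.31 (SE 0.145), -0.22 (SE 0.123) and 0.32 (SE 0.188). Anapc1, the scaffold of the anaphase-promoting complex, differed by 0.03 (SE 0.137).

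Membrane and vesicle traffic members were tested for 7 of 11, and 2, Spg11 and Mall, had an unadjusted p under 0.05 with lower knockout values. Mall, a raft-associated proteolipid of the MAL family, was 8.90, 8.89, 8.85 and 8.64 in knockout arrays, against 9.13, 9.24 and 9.22 in wildtype arrays. The genotypes did not overlap (-0.38, SE 0.103, unadjusted p = 0.00423, limma adjusted p = 0.315). Its unadjusted p stayed under 0.05 in 18 of 18 alternative settings. Vps39, a subunit of the HOPS tethering complex, was 10.16, 9.81, 10.23 and 10.71 in knockout arrays, against 10.08, 9.82 and 9.69 in wildtype arrays, with its high value in knockout replicate 4 (0.37, SE 0.187). Ehd4, an endocytic recycling ATPase, differed by -0.21 (SE 0.141) and Snap23, a SNARE of regulated secretion, by 0.17 (SE 0.122). The Golgi protein Tmem87a differed by 0.17 (SE 0.139).

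Metabolic and mitochondrial members were tested for 6 of 7, and 2 had an unadjusted p under 0.05, both with higher knockout values. Blvra, biliverdin reductase, which makes bilirubin in heme breakdown, was 9.01, 9.0, 9.05 and 9.21 in knockout arrays, against 8.12, 8.85 and 8.72 in wildtype arrays. Its size rested in part on the low wildtype replicate 1, since the difference was 0.50 (SE 0.162, limma adjusted p = 0.336) with that array and 0.28 without it. Galk2, a kinase of N-acetylgalactosamine, was 9.22, 9.33, 9.23 and 9.20 in knockout arrays, against 9.18, 8.72 and 9.01 in wildtype arrays, which nearly met (0.27, SE 0.120, limma adjusted p = 0.413). Without wildtype replicate 2 the difference was 0.15. Ivd, of leucine breakdown, was 7.58 to 8.02 in knockout and 8.08 to 8.14 in wildtype arrays without overlap (-0.21, SE 0.123, unadjusted p = 0.111). Chst14, a dermatan sulfotransferase, differed by 0.18 (SE 0.107), and Gchfr, the feedback regulator of tetrahydrobiopterin synthesis, by 0.03 (SE 0.0936). The untested Ndufaf1, an assembly factor of respiratory complex I, was 6.79, 6.60, 6.64 and 6.77 in knockout arrays, against 6.81, 7.06 and 7.13 in wildtype arrays (-0.30, unadjusted p = 0.0221 and limma adjusted p = 0.483 without a filter).

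Of the members in ubiquitin, proteolysis and protein folding, 5 of 6 were tested, and Hypk and Serf2 were the 2 at an unadjusted p under 0.05. Sppl2a, a lysosomal protease that cleaves the invariant chain remnant of MHC class II, was 10.97 to 11.19 in knockout and 10.71 to 11.32 in wildtype arrays (0.13, SE 0.147). Usp8, an endosomal deubiquitinase, differed by -0.13 (SE 0.157). Among ion transport, signalling and cell death members, 5 of 8 were tested, with Ppip5k1 higher and Slc30a4 lower at an unadjusted p under 0.05. Ppip5k1 makes inositol pyrophosphates and was 8.80, 9.11, 8.82 and 8.65 in knockout arrays, against 8.46, 8.57 and 8.67 in wildtype arrays, which overlapped (0.28, SE 0.122, limma adjusted p = 0.406). Trpm7, a magnesium channel with a kinase domain, differed by -0.16 (SE 0.145), the pro-apoptotic Bcl2l11 (BIM) by -0.08 (SE 0.108) and the calcineurin-like protein Chp1 by -0.01 (SE 0.110).

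The 3 members with no role assigned all had differences above 0. Tmem62, a transmembrane protein, was 8.91, 8.62, 8.53 and 8.49 in knockout arrays, against 8.05, 8.16 and 8.26 in wildtype arrays, without overlap (0.48, SE 0.123, unadjusted p = 0.00275, limma adjusted p = 0.315). Ccdc32, a coiled-coil protein, was 9.24, 9.62, 9.42 and 9.20 in knockout arrays, against 8.94, 9.01 and 8.97 in wildtype arrays. It too did not overlap, and its wildtype arrays lay close together (0.40, SE 0.118, unadjusted p = 0.00674, limma adjusted p = 0.320).

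Some array-wide measures differed between arrays, with overlap between the genotypes, and their part in these differences was not tested unless stated. Gene span was set against each array's deviations over 10002 tested genes, and Spearman's rho was -0.243, -0.254, -0.197 and 0.222 in the knockout and 0.361, 0.136 and -0.149 in the wildtype arrays. Genes are not independent replicates, so this is a description. With that trend removed, 15 members had an unadjusted p under 0.05, where 12.3% of all tested genes did. Of these 15, 13 were among the 14, and Hypk was at 0.31 and Serf2 at 0.22. With wildtype replicates 1 and 2, where endothelial markers were highest, left out, 4 members had an unadjusted p under 0.05, where 3.02% of all tested genes did, and 1 wildtype array was left. Ckap2l was then -0.43, Slc30a4 -0.28, Spg11 -0.13, Wdr76 -0.23, Hypk 0.15, Serf2 0.09 and Ppip5k1 0.18, each nearer to 0 by over 1.5 times. Dnajc17 was -0.59, Mall -0.40, Gabpb1 0.46, Ccdc32 0.40, Tmem62 0.38, Blvra 0.35 and Galk2 0.23.

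**Figure D4:**
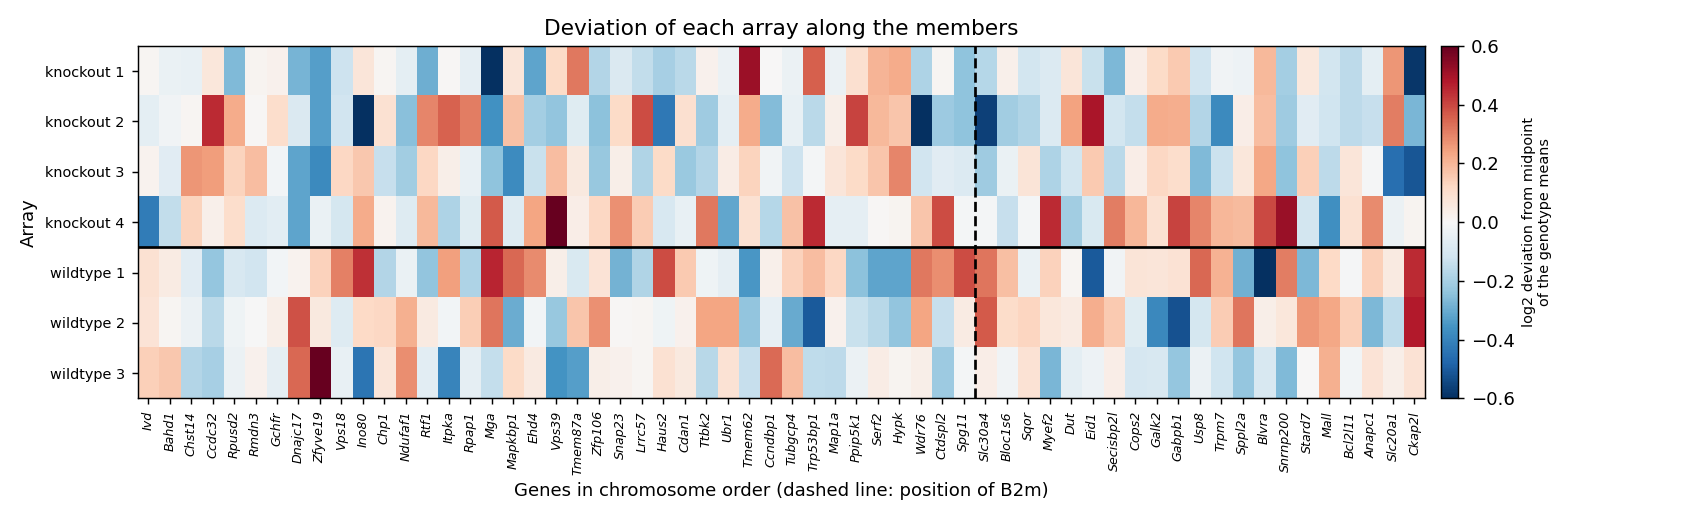
Deviation of each array (rows, 4 knockout above 3 wildtype) from the midpoint of the genotype means, on the log2 scale, for the 60 members in chromosome order (columns). Red is above and blue below the midpoint, colours saturate at 0.6 in either direction, and the dashed line marks B2m. Columns such as Dnajc17, Ccdc32 and Ckap2l differ between the blocks of rows, and in Mga and Vps39 knockout replicate 4 is the highest knockout array.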

How the data were processed

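Per the submitters' processing notes, the authors used RMA and Affymetrix Expression Console 1.1, and they deposited 1 log2 value per probe set and array. For the array's genome build, the sources used here give no name. The table held 28846 rows, with array medians of 7.68 to 7.75, and was not normalized further. A probe annotation named 1 gene for 19572 rows, several for 0 and none for 9274. All named rows were matched by Entrez identifier to RefSeq gene records of GRCm38.p6, used for names, gene order and span. For 55 genes with several probe sets, the one with the highest mean was kept.

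All 10004 genes past the filter entered 1 fit (lmFit, then eBayes, in limma 3.58.1 under R 4.3.3), with Benjamini-Hochberg adjustment. Replicates were numbered in accession order. Members, lists and roles were chosen with earlier results of these data known. Text names B2m, called genes of the stretch, members at an unadjusted p under 0.05, the 5 nearest on each side, up to 4 further per role, and members below the filter. Other settings are described after the results. The number of arrays limits the precision.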

Additional observations from a re-analysis of the deposited data

How the results depend on the processing

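Over 18 alternative settings, 16 planned and 2 chosen after seeing the data, 0 members passed correction in limma, B2m differed by -3.05 to -2.92 and passed in each, and 4 genes of the stretch passed in each. The list left out the 4 genes of the stretch called in the main fit, so the count of 0 members does not describe the stretch. The median over tested members ran from -0.0673 to 0.0524. The count of members at an unadjusted p under 0.05 was 14. It was 8 of 28 with a stricter filter, which tests fewer genes, and 4 without wildtype replicates 1 and 2 together, which leaves fewer arrays and assumes that the lone wildtype array varies like the others. With 1 array left out at a time the count ran from 10 to 17, and the share of all tested genes at that threshold from 7.0% to 14.7%. That share was 14.2% with the stricter filter. Over the 7 array-level omissions the median over tested members ran from -0.0673 to 0.0314. After repeated quantile normalization 14 members, 11 of them shared with the main fit, split into 5 higher and 9 lower, against 8 and 6. With no filter 17 of 60 had an unadjusted p under 0.05, where 9.1% of named genes did. None of the 14 reversed its direction in the settings in which it was tested (17 or 18 of the 18, since some fall below the stricter filter), and their lowest adjusted p was 0.097, for Ckap2l without wildtype replicate 3. Blvra and Serf2 ran from 0.23 to 0.65 and 0.09 to 0.38. Members that lost an unadjusted p under 0.05 without 1 array were Gabpb1, Galk2, Hypk, Ppip5k1, Serf2, Spg11 and Wdr76. No paired analysis was possible because the labels link no knockout array to a wildtype array. Most members were dim, which limits what the arrays can show of them.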
